A study of Mus musculus with 18 samples.

Results

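Foxp3, 4 genes that mark regulatory T cells (Treg) with it and 3 genes of factors tied to its function or control were followed here through 6 sorted CD4+ T-cell populations. The 8 genes were Foxp3, the Ikaros-family genes Ikzf2 (Helios) and Ikzf4 (Eos), the surface receptors Nrp1 (neuropilin-1) and Gpr83, the chromatin organiser Satb1, and Runx1 with its binding partner Cbfb. They were taken by symbol, with earlier results of these data known, and all 8 were found among the 15402 genes of the deposited table and passed the filter on low values, which kept 13190 genes for testing.

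Foxp3 is the forkhead transcription factor that defines Treg. Its protein works in large complexes, in which Eos and the Runx1–Cbfb heterodimer are known members, and Runx1–Cbfb also binds the Foxp3 gene and helps to keep it active. Helios is made by most thymus-derived Treg, while Satb1 is a genome organiser that Foxp3 is known to hold down. Neuropilin-1 is a co-receptor for semaphorins, and Gpr83 is a G-protein-coupled receptor long used as a Treg marker.

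RNA was sequenced from draining (inguinal and axillary) lymph node cells of female C57/BL6 mice that carried both the Foxp3Timer and the Foxp3-IRES-GFP reporter alleles and had received 3% oxazolone on the abdominal skin 5 days earlier. The Timer protein is made when Foxp3 is transcribed, fluoresces blue at first and then matures into a stable red form, so that blue marks recent transcription. Cells without GFP or Timer were sorted as Tnaive (CD44lo) and Teff (CD44hi), and GFP+ cells as Pers1 (Blue-intermediate, Red-low; de novo in the labels), Pers2 (Blue-high, Red-high; maturing), PAt (Blue-low, Red-high; mature) and Arrested (Blue-negative, Red-intermediate; decaying). Each population had 3 libraries, each from a pool of 3 mice, and all 6 populations came from the same pools. Every group was sensitised and carried both reporters, no unsensitised group entered, and the labels gave no age. At the sort, Foxp3 expression was known only through the reporters on which the cells were gated.

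T-cell genes were present throughout: the population means of Cd4 ran from 14.5 to 15.7 and those of Cd3e from 13.7 to 13.9 on the deposited log2 scale, and Tcf7 and Lef1, transcription factors of naïve T cells, were highest in Tnaive at 16.1 and 14.1. The defining gene of the sort, Foxp3, followed the gates. Teff libraries held more RNA of dendritic and myeloid cell markers than the rest. Siglech, a lectin of plasmacytoid dendritic cells, averaged 10.6 in Teff and 3.6 to 4.3 elsewhere. The 5 dendritic-cell markers summed to 12.50 to 12.96 in Teff against 10.80 to 10.93 in Tnaive, 11.65 to 11.73 (Pers1), 11.27 to 11.45 (Pers2), 11.32 to 11.63 (PAt) and 11.44 to 11.54 (Arrested), and none of them was at 0. These are bulk libraries, in which fewer cells of a type and less RNA per cell cannot be told apart.

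RefSeq promoter windows of GRCm38.p6, 250 bases before to 50 bases after a start site, were at hand for 6 of the 8 genes (12 windows). The Foxp3 gene lies on chromosome X from 7573644 to 7595245 on the plus strand (GRCm38), and Runx1 on chromosome 16 from 92601466 to 92826149 on the minus strand. Windows that contain a searched motif are shown because Foxp3, Runx1 and the STAT factors of the interleukin-2 signal are known to act on the Foxp3 gene. Capitals mark the motifs, which were searched on both strands.
Foxp3, chrX:7579426-7579725, plus strand: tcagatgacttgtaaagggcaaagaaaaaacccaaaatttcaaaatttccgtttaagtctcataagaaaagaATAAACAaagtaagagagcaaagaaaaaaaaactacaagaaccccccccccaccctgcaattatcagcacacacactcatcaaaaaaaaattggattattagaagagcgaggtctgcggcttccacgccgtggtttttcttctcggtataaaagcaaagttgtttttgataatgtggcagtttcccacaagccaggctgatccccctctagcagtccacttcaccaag
Foxp3, chrX:7580233-7580532, plus strand: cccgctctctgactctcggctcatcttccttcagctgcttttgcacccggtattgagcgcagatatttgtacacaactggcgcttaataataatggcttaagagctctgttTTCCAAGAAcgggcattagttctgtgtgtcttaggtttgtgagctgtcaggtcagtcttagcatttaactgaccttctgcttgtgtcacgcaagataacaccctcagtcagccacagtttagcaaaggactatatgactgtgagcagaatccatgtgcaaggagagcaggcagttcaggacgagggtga
Runx1, chr16:92826025-92826324, minus strand: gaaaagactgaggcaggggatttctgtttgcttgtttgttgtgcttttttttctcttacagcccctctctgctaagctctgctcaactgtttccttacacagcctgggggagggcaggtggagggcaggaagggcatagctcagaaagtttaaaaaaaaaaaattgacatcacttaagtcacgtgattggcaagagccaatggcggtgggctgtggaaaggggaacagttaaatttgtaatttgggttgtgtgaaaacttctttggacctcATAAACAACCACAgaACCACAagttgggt

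In the first Foxp3 window the forkhead motif (GTAAACA or ATAAACA) began 178 bases before the start site, and 7.97% of all 32851 windows held this motif. The second Foxp3 window held the STAT motif TTCNNNGAA, found in 8.30% of windows. The Runx1 window held 1 forkhead motif and, directly after it, 2 copies of the Runx core TGTGGT on the reverse strand, a core present in 16.8% of windows. None of the other 9 windows, which belong to Cbfb, Nrp1, Gpr83, Satb1 and the second start site of Runx1, held one of the 3 motifs. A match is a description of these letters and not a binding site.

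Foxp3 itself stood far apart between the Timer- and Timer+ populations, which is what the sort selected. The Tnaive libraries held 11.27, 11.37 and 11.38 and the Teff libraries 10.38, 10.59 and 10.64. The Timer+ libraries held 14.68, 14.56 and 14.58 (Pers1), 14.85, 14.81 and 14.81 (Pers2), 14.57, 14.36 and 14.65 (PAt) and 14.45, 14.41 and 14.40 (Arrested). No Timer+ library overlapped a Timer- library, and the mean difference was 3.66 (12.6-fold), given without a test because the gates fixed it.

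Between the Timer- populations, Foxp3 was lower in Teff than in Tnaive by a log2 difference of -0.81 ± 0.068 (standard error, n = 3 against 3, adjusted p = 1.7e-09), and the 2 sets of libraries did not overlap. Across the Timer+ populations its means ran from 14.42 ± 0.027 (SD, n = 3) in Arrested to 14.82 ± 0.025 in Pers2, a narrow range beside the gap to the Timer- cells. The 4 Timer+ populations were separated by the Timer that Foxp3 drives, so their Foxp3 differences and p-values are not independent of the gates. The persistent populations, Pers1 and Pers2, exceeded PAt and Arrested by 0.24 ± 0.048 (1.18-fold, adjusted p = 0.000139), with overlapping libraries. Pers2 exceeded Pers1 by 0.22 (adjusted p = 0.0466), and that p lay between 0.0502 and 0.158 when any 1 of the 6 libraries was left out. Pers1 and PAt differed by 0.082 (95% interval -0.060 to 0.22, adjusted p = 0.304), and PAt and Arrested by 0.10 (95% interval -0.038 to 0.25, adjusted p = 0.453).

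**Figure D1:**
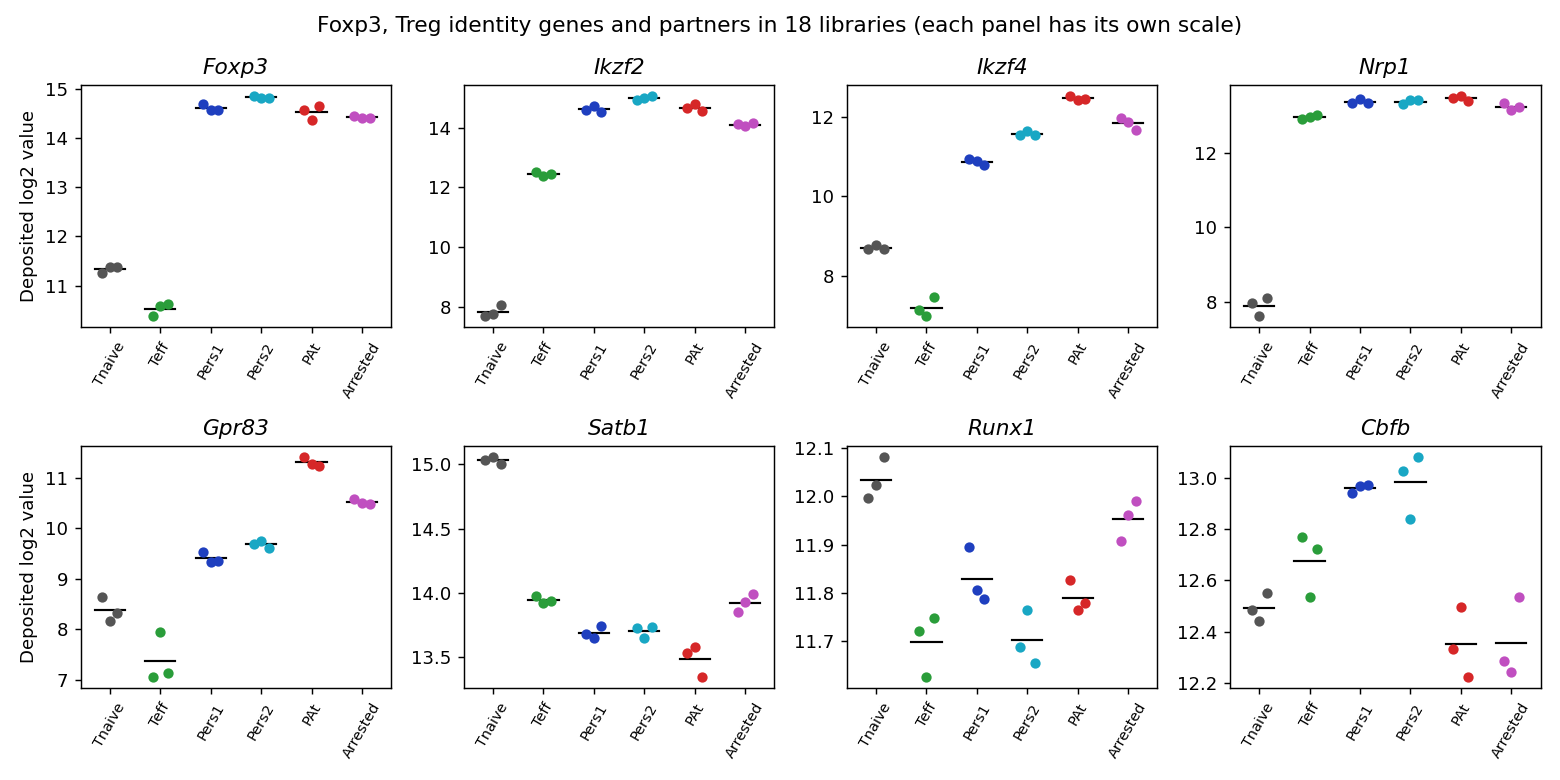
Deposited log2 values of the 8 genes (vertical axis, a separate scale in each panel) in the 3 libraries of each population (points), with the population mean as a bar. Foxp3 separates Timer+ from Timer- populations, Ikzf4 and Gpr83 peak in PAt, and Cbfb is higher in Pers1 and Pers2 than in PAt and Arrested.

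Matched by annotated symbol, 2 other genes of the table overlap Foxp3, both on the opposite strand. They are Ccdc22, a gene of the endosomal sorting machinery (1437 bases), and Ppp1r3f, a regulatory subunit of a protein phosphatase (640 bases). The annotation also places Flicr over 7384 bases of Foxp3 on the same strand, a symbol that the table lacks. The table does hold Ppp1r3fos, and whether this is Flicr under another symbol was not checked. The libraries were strand-specific, but the strand setting of the counting is not given in the sources used here, so reads in the overlaps could belong to either gene. Ccdc22 averaged 12.22 in Tnaive, 11.31 in Teff and 13.41 (Pers1), 13.58 (Pers2), 13.29 (PAt) and 13.39 (Arrested) in the Timer+ populations, a Timer+ minus Timer- difference of 1.65 ± 0.046 (adjusted p = 1.31e-17). Its Teff minus Tnaive difference was -0.91 (adjusted p = 1.12e-09). Ppp1r3f was lower in Teff than in Tnaive by -1.56 (adjusted p = 1.88e-12) and differed by 0.46 between Timer+ and Timer- populations. Ccdc22 thus ranked the Timer+ populations above the Timer- populations as Foxp3 did, while Ppp1r3f did not. By the same match of symbols, the remaining 7 genes overlap no other gene of the table.

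**Figure D2:**
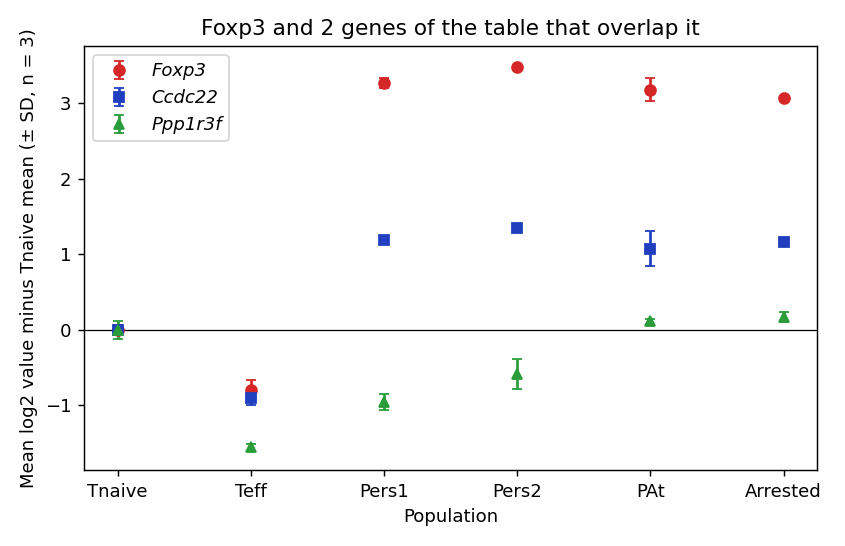
Mean log2 value of Foxp3, Ccdc22 and Ppp1r3f in each population minus the same gene's Tnaive mean (vertical axis; error bars are SD, n = 3). Foxp3 and Ccdc22 are both lowest in Teff and above Tnaive in all 4 Timer+ populations, whereas Ppp1r3f is below Tnaive in Pers1 and Pers2.

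Of the 8 genes, 5 were called higher and none lower in Timer+ than in Timer- populations, where a call required an adjusted p under 0.05 and a log2 difference over 1. Over all genes tested 6.38% were called, and 4.66% were called higher. Foxp3 was 1 of the 5 because the gates sort on its reporter, so its call is no result, and the 4 called among the other 7 were Ikzf2, Ikzf4, Nrp1 and Gpr83. For these 4, as for Foxp3, the 12 Timer+ libraries did not overlap the 6 Timer- libraries (5.95% of genes tested). With the adjusted p alone Satb1 (-0.79 ± 0.033) joined them, making 6 of 8 with Foxp3 (61.6% of genes tested). The median of the 8 differences, Foxp3 included, was 2.64, beside -0.0046 for all genes tested.

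The 2 Timer- populations were unlike each other in these genes, so each was also compared with the Timer+ mean. Foxp3, fixed by the gates, is again 1 of the genes counted as higher. Against Tnaive, 5 genes with Foxp3, or 4 of the other 7, were higher and Satb1 was lower (10.3% of genes tested called), and all 8 had an adjusted p under 0.05 (66.8% of genes tested). Against Teff 4 with Foxp3, or 3 of the other 7, were higher and none lower (5.45% called), and 7 of 8 had an adjusted p under 0.05 (46.5%). Nrp1 dropped out against Teff, where its difference was 0.40 ± 0.067 (1.32-fold, adjusted p = 3.69e-05). The 3 comparisons share the Timer+ libraries.

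Ikzf2 encodes Helios, the Ikaros-family factor of thymic Treg. Its level was 7.68, 7.76 and 8.05 in Tnaive and 12.52, 12.39 and 12.43 in Teff. Timer+ libraries held 14.60, 14.73 and 14.53 (Pers1), 14.93, 14.98 and 15.06 (Pers2), 14.64, 14.79 and 14.55 (PAt) and 14.12, 14.05 and 14.14 (Arrested). Every Timer+ library thus exceeded every Timer- library, but Teff stood far above Tnaive, with a difference of 4.62 ± 0.078 (24.6-fold, adjusted p = 1.01e-20). Timer+ populations exceeded Teff by 2.14 ± 0.061 (4.42-fold, adjusted p = 5.03e-17). Among the Timer+ populations the order was Pers2, PAt, Pers1 and Arrested. PAt and Pers1 differed by 0.041 (95% interval -0.12 to 0.20), while Arrested lay below Pers1 by 0.52 (adjusted p = 7.62e-06), a difference short of the 1 required for a call.

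Ikzf4 encodes Eos, a co-repressor partner of Foxp3, and it behaved differently. Tnaive libraries held 8.66, 8.78 and 8.66 and Teff libraries 7.14, 6.97 and 7.45. Pers1 held 10.93, 10.88 and 10.78, Pers2 11.54, 11.64 and 11.53, PAt 12.52, 12.43 and 12.45, and Arrested 11.96, 11.87 and 11.66. All Timer+ libraries were above all Timer- libraries (difference 3.74 ± 0.058, 13.4-fold, adjusted p = 6.77e-22), and Ikzf4 fell from Tnaive to Teff by a log2 difference of -1.51 ± 0.094 (adjusted p = 1.08e-11). Persistent populations were lower than PAt and Arrested in every library, by -0.93 ± 0.067 (95% interval -1.07 to -0.79, adjusted p = 7.36e-11), just short of a call. Between the ends of that range, PAt exceeded Pers1 by 1.60 ± 0.094 (adjusted p = 8.19e-12). Each step of the order PAt, Arrested, Pers2, Pers1, Tnaive, Teff had an adjusted p under 0.05. The step from Arrested to Pers2 (0.26, adjusted p = 0.021) reached an adjusted p of 0.106 when libraries were left out one at a time, crossing 0.05 without Pers2 replicate 1 or 3 or without Arrested replicate 1 or 2.

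Gpr83 followed the same order of populations as Ikzf4. In Tnaive it held 8.64, 8.17 and 8.32 and in Teff 7.05, 7.94 and 7.14. The Timer+ libraries held 9.54, 9.34 and 9.34 (Pers1), 9.68, 9.75 and 9.61 (Pers2), 11.41, 11.27 and 11.23 (PAt) and 10.57, 10.50 and 10.48 (Arrested). PAt libraries were the highest and no library of 1 Timer+ population overlapped another. Gpr83 was the 1 gene of the 8 called between persistent and PAt with Arrested populations: it was lower by -1.37 ± 0.11 (2.58-fold, adjusted p = 7.21e-10), where 7.51% of genes tested were called and 2.77% were called lower. Arrested lay below PAt by -0.79 ± 0.16 (adjusted p = 0.00501), and PAt exceeded Pers1 by 1.90 ± 0.16 (adjusted p = 1.83e-09). The Teff minus Tnaive difference was -0.9997 ± 0.16 (adjusted p = 1.56e-05), on the edge of the threshold. Teff replicate 2 stood above the other Teff libraries, and without it the difference was -1.28 and called.

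Some markers of other cells also differed between persistent populations and PAt with Arrested. Of 4 B-cell markers, Cd79a (-1.14) and Ms4a1 (-1.11) were lower in persistent populations than in PAt and Arrested, and Cd79b (-0.40) and Pax5 (-0.79) were not called. Their summed level was 10.3 to 10.4 (Pers1), 10.2 to 10.5 (Pers2), 11.2 to 11.4 (PAt), 10.8 to 11.1 (Arrested), 11.1 to 11.7 in Teff and 9.1 to 9.5 in Tnaive, with none of the 4 at 0. Of the 4 naïve T-cell markers Ccr7 (-1.37) and Tcf7 (-1.48) were lower in persistent populations, and of the 2 CD8 markers Cd8a (-1.16). Of the 4 myeloid markers tested, Itgam, an integrin subunit, was higher in persistent populations by 2.05 (adjusted p = 2.05e-16), and Lyz2 (-0.19), Csf1r (0.032) and Adgre1 (0.0096) were not called. The summed level of the myeloid markers was 9.39 to 9.59 (Pers1), 8.64 to 8.81 (Pers2), 7.93 to 8.62 (PAt) and 7.93 to 8.66 (Arrested). The part of all these markers in the differences of Ikzf4 and Gpr83 was not tested.

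Nrp1 varied little among the Timer+ populations and was nearly as high in Teff. It held 7.95, 7.60 and 8.10 in Tnaive but 12.90, 12.96 and 12.99 in Teff. Pers1 held 13.33, 13.44 and 13.32, Pers2 13.29, 13.40 and 13.41, PAt 13.47, 13.52 and 13.39, and Arrested 13.33, 13.15 and 13.21. Tnaive thus stood alone, with a Teff minus Tnaive difference of 5.07 ± 0.084 (33.6-fold, adjusted p = 1.01e-20). Persistent populations and PAt with Arrested differed by 0.021 (95% interval -0.10 to 0.15, adjusted p = 0.762), and no neighbouring Timer+ populations in the order PAt, Pers2, Pers1, Arrested passed an adjusted p of 0.05. Arrested exceeded Teff by 0.28 (adjusted p = 0.0107), which became 0.053 without Arrested replicate 1.

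Nrp1 is also made by plasmacytoid dendritic cells, and their markers were high in Teff. Of the 5 dendritic-cell markers, Siglech (6.77), Flt3 (4.13) and Irf8 (3.73) were higher in Teff than in Tnaive, while Xcr1 (0.64) and Bst2 (0.37) were not called. The Timer+ mean was also below Teff for these 3, Siglech by a log2 difference of -6.65. All 4 B-cell markers and 3 of 4 myeloid markers tested were also higher in Teff than in Tnaive, where 11.2% of genes tested were called. Lyz2 led them at 4.02, and the myeloid marker Itgam (-0.11) was not called. The myeloid markers summed to 10.3 to 10.6 in Teff and 7.9 to 9.6 in the other 5 populations, and Cd14 averaged about 0.5 in every population and was not tested. Of the 3 NK-cell markers Klrb1c (3.20) and Ncr1 (1.39) were higher in Teff than in Tnaive and Eomes (-1.25) was lower. Their sum was 8.94 to 9.02 in Teff and 9.11 to 9.41 in Tnaive. Of the 2 CD8 markers Cd8a (2.06) was higher in Teff and Cd8b1 (0.77) was not called. The part of such cells in the Teff levels of Nrp1 and Ikzf2 was not tested. Without Teff, in Timer+ populations against Tnaive, Nrp1 differed by 5.47 ± 0.067 (44.4-fold) and Ikzf2 by 6.77 ± 0.061 (109-fold).

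Satb1 ran the other way. Its level was 15.04, 15.06 and 14.9998 in Tnaive and 13.98, 13.92 and 13.93 in Teff. The Timer+ libraries held 13.68, 13.65 and 13.74 (Pers1), 13.73, 13.65 and 13.74 (Pers2), 13.53, 13.58 and 13.35 (PAt) and 13.85, 13.93 and 13.99 (Arrested). Tnaive was highest in every library, and Satb1 fell both from Tnaive to Teff (-1.09 ± 0.055, adjusted p = 2.95e-13) and to the Timer+ populations (-1.33 ± 0.043, 2.51-fold lower, adjusted p = 9.32e-17). Beside Teff the Timer+ mean was lower by only -0.24 ± 0.043 (adjusted p = 8.48e-05), with overlapping libraries. Teff and Arrested differed by 0.020 (95% interval -0.094 to 0.13). Within Timer+ cells Arrested exceeded PAt by 0.44 ± 0.055 (adjusted p = 4.08e-05), and persistent populations and PAt with Arrested differed by -0.0063 (95% interval -0.087 to 0.074, adjusted p = 0.892).

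Runx1 and Cbfb encode the DNA-binding and the stabilising subunit of the core-binding factor, and neither was called in any comparison. Runx1 held 11.996, 12.02 and 12.08 in Tnaive and 11.72, 11.63 and 11.75 in Teff. Its Timer+ libraries held 11.90, 11.81 and 11.79 (Pers1), 11.69, 11.77 and 11.65 (Pers2), 11.83, 11.76 and 11.78 (PAt) and 11.91, 11.96 and 11.99 (Arrested). No Timer+ library reached the lowest Tnaive value, and Teff overlapped Pers2. Timer+ and Timer- populations differed by -0.047 (95% interval -0.11 to 0.016, adjusted p = 0.189). Runx1 was lower in Teff than in Tnaive by -0.34 ± 0.050 (adjusted p = 6.12e-06), and lower in persistent than in PAt and Arrested populations by -0.10 ± 0.035 (1.08-fold, adjusted p = 0.0115).

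Cbfb held 12.48, 12.44 and 12.55 in Tnaive and 12.77, 12.53 and 12.72 in Teff. Its Timer+ libraries held 12.94, 12.97 and 12.97 (Pers1), 13.03, 12.84 and 13.08 (Pers2), 12.33, 12.49 and 12.22 (PAt) and 12.29, 12.24 and 12.54 (Arrested). Every persistent library exceeded every PAt and Arrested library. The difference was 0.62 ± 0.057 (1.54-fold, adjusted p = 3.9e-09), under the size required for a call. Pers1 and Pers2 differed by 0.023 (95% interval -0.14 to 0.19), and PAt and Arrested by 0.0039 (95% interval -0.16 to 0.17). Tnaive and Teff lay between these pairs, and their difference of 0.18 had an adjusted p of 0.0572, or 0.0405 with the replicate pools as a block. Without Teff replicate 2 that adjusted p was 0.0165.

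**Figure D3:**
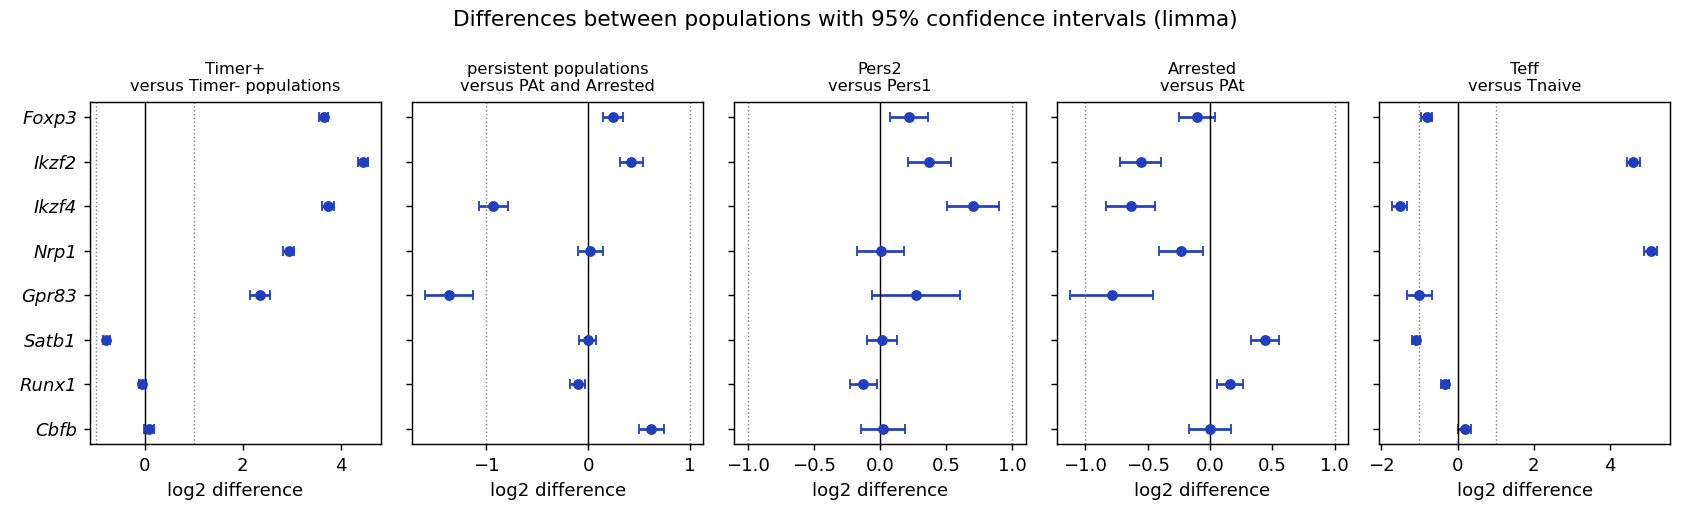
Log2 differences of the 8 genes (horizontal axis, first group minus second) with 95% confidence intervals from limma, for 5 comparisons on separate scales; dotted lines mark the log2 difference of 1 required for a call. Differences between Timer+ and Timer- cells and between Teff and Tnaive reach past 3 for several genes, whereas in the 3 comparisons among Timer+ populations Gpr83 alone passes 1, in persistent against PAt and Arrested populations.

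Persistent and PAt with Arrested populations therefore differed in 1 called gene of 8, where 7.51% of genes tested were called and 2.77% were called lower. An adjusted p under 0.05 was found for 6 of 8 (70.9% of genes tested): Foxp3, Ikzf2 and Cbfb higher, Ikzf4, Gpr83 and Runx1 lower. Foxp3 is counted among the 6, although the gates used its Timer. Libraries did not overlap for Ikzf4, Gpr83 and Cbfb (45.8% of genes tested). The median of the 8 differences was 0.0075, beside -0.013 over all genes tested.

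Finer steps brought no call among the 8 genes. Foxp3 is among the 8, although the gates between these populations used its Timer. For Pers2 against Pers1 (0.19% of genes called), Ikzf4 (0.70 ± 0.094, adjusted p = 5.54e-05), Ikzf2 (0.37 ± 0.078, adjusted p = 0.00358) and Foxp3 had an adjusted p under 0.05 (10.6% of genes tested), all higher in Pers2. For Arrested against PAt (0.121% of genes called), Ikzf2 (-0.56), Ikzf4 (-0.64) and Gpr83 (-0.79) were lower and Satb1 (0.44) higher at that threshold (5.04% of genes tested). Libraries of the 2 populations did not overlap for 5 genes in the first step (31.9% of genes tested) and 6 in the second (18% of genes tested).

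Teff and Tnaive differed in 4 called genes, Ikzf2 and Nrp1 higher and Ikzf4 and Satb1 lower (11.2% of genes tested called). At an adjusted p under 0.05 the number was 7 of 8 (59% of genes tested), with Cbfb the exception. The genes that mark Treg were thus split: 2 of the 5 were higher in Teff, 1 was lower, and Foxp3 and Gpr83 were lower without reaching the size of a call.

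To see whether the difference between persistent and other Timer+ populations resembled that between Teff and Tnaive, the 2 differences were subtracted from each other within the same fit. The difference between them was called for 4 genes of 8, where 8.42% of genes tested were called, and 7 of 8 had an adjusted p under 0.05 (48.7% of genes tested). It was -5.05 ± 0.10 for Nrp1 and -4.20 ± 0.095 for Ikzf2, genes that were far higher in Teff than in Tnaive (5.07 and 4.62) and differed by 0.021 and 0.42 among the Timer+ populations. It was 1.08 ± 0.067 for Satb1 and 1.05 ± 0.084 for Foxp3. For Foxp3 the Timer+ side compares populations gated on its own reporter. For Gpr83, lower both in persistent populations and in Teff, it was -0.37 (95% interval -0.77 to 0.040, adjusted p = 0.129), but that p was 0.0298 at the lowest, falling under 0.05 without Teff replicate 1 or Tnaive replicate 1. For Foxp3 the value was 0.97 and no longer called without Teff replicate 1. The Teff side of these values rests on libraries with the dendritic, myeloid, B-cell, NK-cell and CD8 markers given above, and their part in them was not tested.

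**Figure D4:**
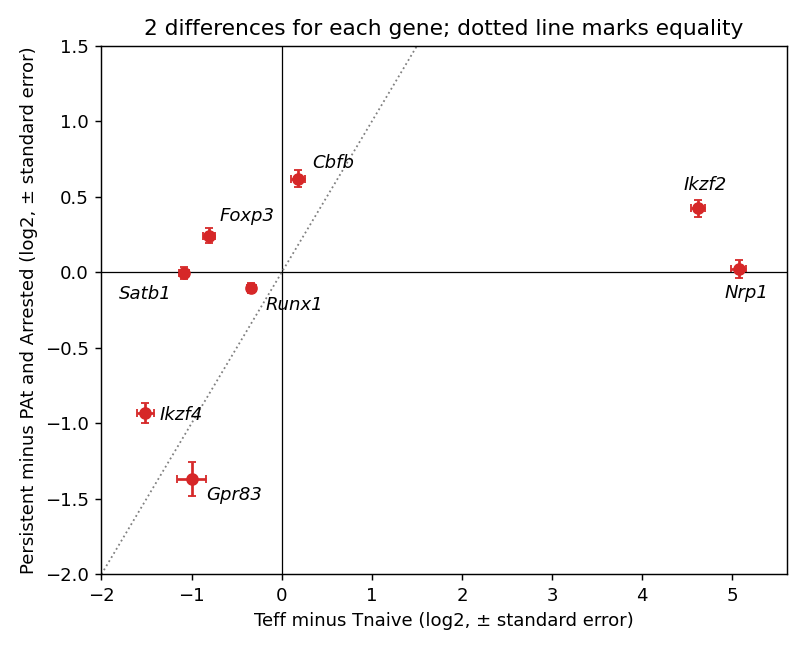
For each gene, the Teff minus Tnaive log2 difference (horizontal axis) against the persistent minus PAt and Arrested log2 difference (vertical axis), with standard errors; the dotted line marks equal differences and the 2 axes have separate scales. Nrp1 and Ikzf2 lie far to the right near 0 on the vertical axis, and Gpr83 lies nearest the dotted line among the genes with large differences.

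Relatives of these genes were read from the same fit. In the Ikaros family (5 of 5 genes tested), Ikzf3, which encodes Aiolos, was higher in persistent than in PAt and Arrested populations by 1.35 and in Timer+ than in Timer- populations by 1.18, whereas Ikzf1, the founding member, was -0.9998 in the latter comparison and not called, and Ikzf5 was -0.16. In the Runx list (6 of 7 genes in the table), Runx2 (1.88) and Runx3 (1.18) were higher in persistent populations, where Cbfb was 0.62 and Runx1 -0.10. Runx2 averaged 6.0 in Tnaive, 11.01 in Teff, 10.8 and 10.99 in Pers1 and Pers2, and 9.2 and 8.9 in PAt and Arrested. Cbfa2t3, a co-repressor of the Runx-partner family, was higher in Teff than in Tnaive by 3.97 and was -0.11 in persistent populations, and Cbfa2t2 was -0.39 there. Foxp1 and Foxp4 were not called in any comparison, at -0.87 and -0.30 for persistent populations. Foxp2 was not analysed here.

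**Figure D5:**
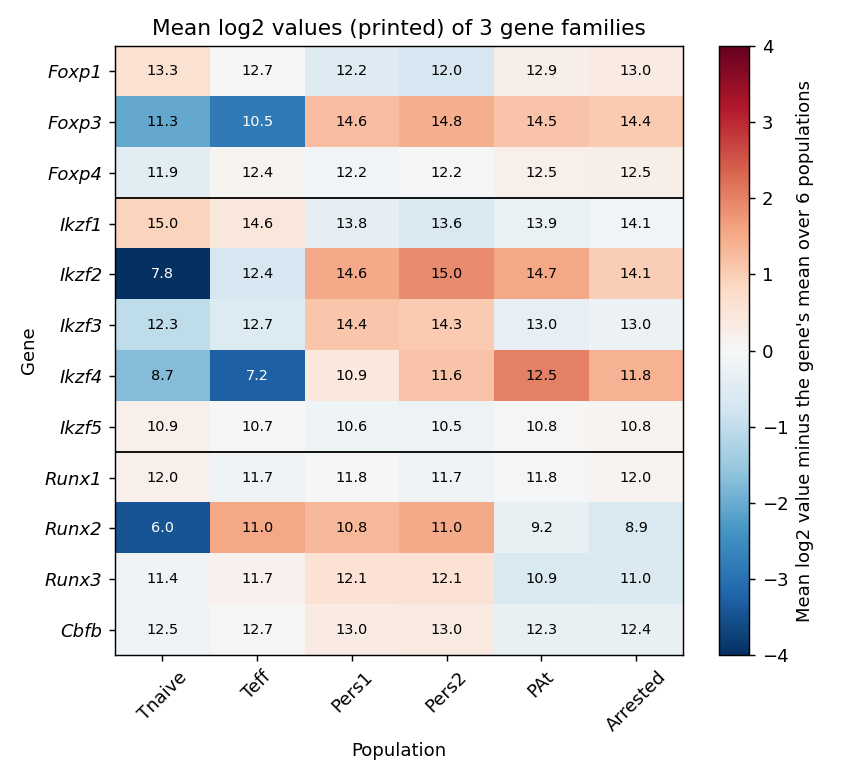
Population means of 12 genes of the Foxp, Ikaros and Runx families (numbers are mean deposited log2 values, n = 3; colour is the mean minus the gene's own mean over the 6 populations). Levels are to be read along a row, since values are not per gene length: Ikzf3, Runx2 and Runx3 are higher in Pers1 and Pers2 than in PAt and Arrested, and Ikzf4 the reverse.

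Receptors and ligands around neuropilin-1 (8 of 11 listed genes tested, Nrp1 included) gave 1 higher and 1 lower call in persistent populations, where 7.51% of genes tested were called and 2.77% called lower. Plxnd1, a plexin receptor for semaphorins, was higher by 1.12, and Nrp2, the sister receptor, was lower by -1.06. Sema4a, a semaphorin ligand of neuropilin-1 on Treg, was -0.53 there and not called, and Sema4d was 0.29, Plxna1 -0.55, Plxna3 -0.41 and Vegfa -0.16. The median of the list was -0.28, beside -0.013 for all genes tested.

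Other genes of Treg identity were higher on the Timer+ side of the sort and split among the Timer+ populations. They were listed with earlier results of these data known, and the sort itself used a Treg reporter. Their counts between Timer+ and Timer- populations are a description and no separate test. All 22 of a list of 22 were higher in Timer+ than in Timer- populations, where 4.66% of genes tested were called higher, with a median of 2.91 and Lrrc32, the receptor that holds latent TGF-beta, at 7.77, Il2ra at 6.01 and Socs2 at 4.78. In Timer+ against Teff, 17 of 22 were higher (5.45% of genes tested called), and in Teff against Tnaive 17 were higher and 1, Ecm1, lower (-1.41), with 11.2% of genes tested called. In persistent populations (7.51% called) 8 were higher, led by Icos (2.48), Itgae (2.36) and Il10 (2.26), and 2 were lower, Ecm1 (-1.11) and Plagl1 (-1.02), the same direction as Gpr83. The median there was 0.82, beside -0.013 for all genes tested.

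For genes that Foxp3 is known to restrain (13 tested, Satb1 included), 7 were lower and none higher in Timer+ than in Timer- populations (6.38% of genes tested called), with a median of -1.05 beside -0.0046 for all genes tested. Pde3b, a phosphodiesterase that Foxp3 represses, was at -3.85, the helper-cell cytokine Il21 at -3.30 and the CD40 ligand gene Cd40lg at -2.12. Against Teff 6 were lower (5.45% of genes tested called), with Il21 (-6.01), Pde3b (-3.74) and Il4 (-3.04) the furthest, and Satb1 was -0.24. Against Tnaive 6 were lower and 1 was higher (10.3% of genes tested called), with a median of -0.59: Pde3b was at -3.97 and Cd40lg at -2.06, the interferon gene Ifng was higher by 2.27, and Il21 (-0.59) and Il4 (0.50) were not called. In persistent populations 1 was lower (7.51% of genes tested called), Tcf7 (-1.48), and Pde3b was 0.09.

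Among 30 genes of known Foxp3 protein partners, all tested, 3 were higher and none lower in Timer+ populations. They were Ikzf2, Ikzf4 and Ikzf3, with 6.38% of genes tested called. Ikzf2 and Ikzf4 belong to the 8 genes, and with all members of the 8 left out, 1 of 26 was higher. In persistent populations (7.51% called) 4 were higher, Irf4 (1.43), Ikzf3 (1.35), Ezh2 (1.17) and Hif1a (1.00), and the histone deacetylase gene Hdac9 was lower (-1.14). The medians were 0.052 and 0.0041, beside -0.0046 and -0.013 for all genes tested, and most members of the complex, such as Kat5 (-0.05 and -0.13) and Smarca4 (0.09 and 0.15), were not called in either comparison.

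Among 34 regulators of the Foxp3 gene, 4 were higher and 1 lower in Timer+ than in Timer- populations, where 6.38% of genes tested were called, with a median of 0.07 beside -0.0046 for all genes tested. Those higher were Il2ra, Il2rb (2.85), Uhrf1 (2.01) and Nr4a2 (1.19), and the lower one was Tet1 (-1.09), a demethylating enzyme. Il2ra was also counted in the list of Treg identity genes above, so the lists are not separate. In persistent populations, where 7.51% of genes tested were called, Uhrf1 (2.71) and Dnmt1 (1.21), which copy DNA methylation at replication, were higher, and Bach2 (-2.10), Klf2 (-1.11) and Kmt2d (-1.0001, at the edge of a call) were lower. Stat5a (-0.30), Stat5b (-0.30), Foxo1 (-0.24) and Smad3 (0.18) were not called. The median in persistent populations was -0.17, beside -0.013 for all genes tested.

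Pearson correlation over the 18 libraries gave Dennd5a (r = 0.985), Lrrc32 (0.982), Acsbg1 (0.980), Ccdc22 (0.977) and Cish (0.972) as the 5 genes most like Foxp3. Libraries of 1 population are close together, so these values rest largely on the gap between Timer+ and Timer- populations. Over the 12 Timer+ libraries the 5 were AI414108 (0.960), B4galnt4 (0.945), Fancg (0.944), Pnkd (0.942) and Ccsap (0.941), and 0 genes were shared between the 2 sets. The members' likeness to Foxp3 likewise changed: Ikzf4 had r = 0.953 over 18 libraries and -0.29 over the 12, Gpr83 0.847 and -0.52, and Ikzf2 0.764 and 0.743. Ikzf4 and Gpr83 stayed alike in both sets, at 0.951 and 0.944. Ikzf2 and Runx1 were at -0.59 over 18 and -0.90 over 12 libraries. These are descriptions across libraries that share populations and pools.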

How the data were processed

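Female mice were sensitised with oxazolone and 6 CD4+ populations were sorted from each of 3 pools. Per the labels and methods, libraries (TruSeq Stranded mRNA) were sequenced as 100 bp paired ends, demultiplexed with CASAVA 1.8.2, checked with FastQC 0.11.2 and aligned by TopHat2 2.0.9 against mm10, the Timer gene being added or not. The counting tool and its strand setting are not given in the sources used here. The deposited values, made by the authors, are normalised counts on a log2 scale in the form that DESeq2's regularised logarithm gives, for 15402 genes and 18 libraries. They hold no totals, so depth is unknown, and the transformation draws differences of low genes towards 0. No per-sample column was left out.

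Values were used as deposited, with no pseudocount. limma 3.58.1 (R 4.3.3) with a variance trend was fitted to all 18 libraries with 1 mean per population (12 residual degrees of freedom), after genes whose values averaged under 3 had been set aside, which left 13190; the other 2212 were not tested. Benjamini-Hochberg adjusted p-values run over all genes tested, all tests were two-sided, and calls required an adjusted p below 0.05 together with a log2 difference of more than 1 either way. Averages of several populations weigh each equally. Some genes of the lists are not reported here and were left out of the list counts and sums. The fit was tested on simulated data. Figures were drawn with matplotlib. The 8 members, the gene lists, the cell markers and the tests were chosen with earlier results of these data known. Named genes were the 8 members, relatives of their families, in each list up to 3 called genes each way with the highest or lowest difference, and the 5 genes most correlated with Foxp3; other genes were named after their values were seen. Replicate numbers pair the libraries, since the series' design takes the 6 populations from the same pools: 45 same-number pairs had a median correlation of deviations from population means of 0.166 (-0.206 to 0.436), and 90 different-number pairs -0.064. Alternatives were a replicate block, no filter, no fold threshold, compared populations only, no variance trend, libraries centred on their medians, and each library left out in turn.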

Additional observations from a re-analysis of the deposited data

Results flagged for a closer look

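For 7 of the 8 genes, the persistent minus PAt and Arrested difference departed from the Teff minus Tnaive difference by a test of the 2 differences in the same limma fit. The values, as log2 of the first difference minus the second, were -5.05 for Nrp1 (adjusted p = 1.31e-18), -4.20 for Ikzf2 (adjusted p = 3.89e-18), 1.08 for Satb1 (adjusted p = 2.06e-11), 1.05 for Foxp3 (adjusted p = 1.28e-09), 0.58 for Ikzf4 (adjusted p = 0.000279), 0.44 for Cbfb (adjusted p = 0.00094) and 0.23 for Runx1 (adjusted p = 0.00347). Over all genes tested 48.7% had an adjusted p under 0.05 in this comparison. Ikzf4 was lower in both settings, by -0.93 in persistent and by -1.51 in Teff cells. Foxp3 had opposite signs, 0.24 and -0.81, the first between populations gated on its own Timer.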

How the results depend on the processing

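Counts of called genes among the 8 kept within 1.5 times of the reported value with the replicate block, without the filter, without the variance trend, with compared populations only, after centring and with each library left out; the block changed no call of a member. With no fold threshold the counts were 6 for persistent against PAt and Arrested, 3 for Pers2 against Pers1, 4 for Arrested against PAt, 7 for Teff against Tnaive, 7 for Timer+ against Teff and 7 for the difference of the 2 differences, since the 8 genes then needed only the adjusted p. Over all genes the block left 842 calls in place of 841 for Timer+ against Timer- and 992 in place of 990 for persistent against PAt and Arrested. Of the 5 genes most like Foxp3, 0 were found again over the 12 Timer+ libraries.

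Signs changed only for differences near 0 that were not called. After centring, Nrp1 was -0.044 for persistent against PAt and Arrested and -0.015 for Pers2 against Pers1, and Satb1 was -0.0042 for Pers2 against Pers1. Leaving out libraries gave -0.041 to 0.018 for Satb1 in the first comparison, -0.017 to 0.043 for Nrp1, -0.0048 to 0.044 for Satb1 and -0.026 to 0.095 for Cbfb in the second, -0.087 to 0.076 for Cbfb in Arrested against PAt and -0.084 to 0.034 for Cbfb in Timer+ against Teff. Centring also made Gpr83 a call for Teff against Tnaive (-1.08), and moved the median of all genes by over 0.1 in Timer+ against Tnaive alone (-0.11). The cause of these changes was not tested. The order of populations kept after centring for 5 of 8 genes. Without 1 library, Runx1 in Timer+ against Teff rose from an adjusted p of 0.0153 to 0.146 (Teff replicate 2), Cbfb in Timer+ against Tnaive from 0.0239 to 0.113 at most (Tnaive replicate 1 or 2), and the step from Arrested to Pers1 for Runx1 from 0.0382 to 0.132 at most.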

Other observations

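The genes most like the other members over the 18 libraries were looked up after the values had been seen and are given as values. For Nrp1 they were led by Tiam1, an activator of the small GTPase Rac (r = 0.998), and for Ikzf2 by Nt5e, which encodes CD73 (0.997). Ikzf4 had Ppp1r3fos at 0.982 and Ecm1 at 0.980, and Gpr83 had Ifngr1 at 0.981 and Ecm1 at 0.974. Whether Ppp1r3fos overlaps Foxp3 under another symbol was not checked. Over the 12 Timer+ libraries Ecm1 came first for Ikzf4 (0.989). Cbfb had r = -0.88 with Gpr83 over those 12 libraries and -0.34 over all 18.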
